A study of Mus musculus with 4 samples.

Results

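Mouse primary intestinal epithelial cells given interleukin-17A (IL-17A) and fibroblast growth factor 2 (FGF2) together were compared with cells left untreated. The comparison rests on 2 of the 4 arrays of the series, 1 for each group. Its members are all genes, each read as the log2 signal on the combined array minus that on the untreated array. Of 18193 genes represented by 1 probe set each, 12258 had a signal over the floor on at least 1 of the 4 arrays and are called measured. The floor was a signal of 89.8, the median of all signals of non-control probe sets, and lower signals were raised to it. Where 1 of the signals was floored, the fold is a minimum and is written as "at least".

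The cells came from isolated crypts plated on fibronectin in medium with serum and insulin. Stimulation lasted 6 h, with IL-17A at 50 ng/ml, FGF2 at 5 ng/ml or both, while the control group got neither. The strain, age and number of the mice and the culture time of the untreated cells were not given in the sources used here, nor was any step that removes other cells. Expression was read on Affymetrix arrays from biotin-labelled cRNA and summarised per probe set with MAS5, which subtracts the signal of mismatch probes. The series title names cooperation of the factors in wound healing of the intestinal epithelium as its subject. Each group has a single array and no replicate, so no test was made, and each value describes these arrays alone.

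IL-17A is made by T helper cells and innate lymphocytes. Its receptor, a pair of IL-17RA and IL-17RC chains, binds the adaptor Act1 (the gene Traf3ip2), which leads to NF-kB and C/EBP activity and to longer-lived chemokine mRNAs. FGF2 acts through receptor tyrosine kinases that signal over ERK, and ERK induces its own inhibitors of the Sprouty and DUSP families. In the intestine, IL-17A is known for neutrophil recruitment and barrier defence, and FGF2 for growth and repair.

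The labelled cell type was checked against marker genes. Of 9 epithelial markers on the arrays all 9 were measured, among them Epcam (signals 16578 untreated, 16949 with IL-17A, 17806 with FGF2 and 18315 with both) and Krt8 (24796 untreated, 26776 with IL-17A, 27124 with FGF2 and 28156 with both). Between the combined and the untreated array the log2 differences of the 9 ran from −0.69 to 0.18, with 6 above 0 and 3 below. Of 4 stem cell markers only Smoc2 was measured, and Lgr5, Ascl2 and Olfm4 were under the floor on all 4 arrays. The enterocyte markers Fabp1 and Lct were under it as well. Transcripts of other cells of the gut wall were measured too. The summed signals of 6 fibroblast markers were 52918 on the untreated and 43475 on the combined array, those of 4 smooth muscle markers 21066 and 14221, and those of 5 endothelial markers 4695 and 7677. The macrophage markers, all 5 measured, summed to 2969 and 2415. Of 3 neutrophil markers on the arrays, Elane, Mpo and Csf3r, 0 were over the floor on any array. Only 1 of the T and B cell markers, Cd8a, was measured (97 untreated, 97.4 with IL-17A, 53.3 with FGF2 and 113 with both), near the floor. In such bulk samples fewer cells of a type and less RNA per cell cannot be told apart.

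With both factors, 111 genes were at least 2-fold higher than untreated, 0.906% of the measured genes, and 212 were at least 2-fold lower, 1.73%. In either direction that was 323 genes, 2.64%. The median log2 ratio of all measured genes was 0.00, and 90% of them lay between −0.67 and 0.48. Above 0 were 48.2% of them and below 0 49.6%. The list counts given below are to be read beside these shares and those past 2-fold. Because the lists were chosen with earlier results of these data known, their counts are descriptions and no measure of chance. Of the lower calls, 89 came from genes with a mean log2 signal under 8, another 89 from those between 8 and 10, and 7 from those over 12. The higher calls numbered 29, 44 and 10 in these classes. The median log2 ratio ran from −0.06 in the dimmest genes to 0.11 in genes with a mean log2 over 12. Raising the floor to the 75th percentile left 56 higher and 58 lower genes, and lowering it to the 25th gave 295 and 618.

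**Figure D1:**
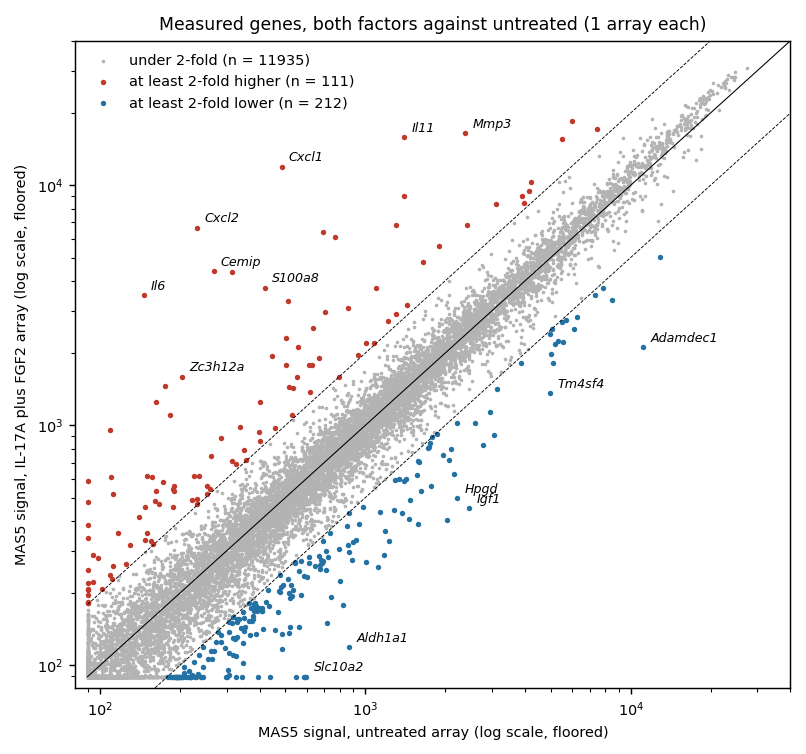
Each point is 1 of the 12258 measured genes, with its signal on the untreated array on the horizontal and on the IL-17A plus FGF2 array on the vertical log axis, both raised to the floor of 89.8. Solid line, equal signals; dashed lines, 2-fold. The 111 genes at least 2-fold higher (red) include Cxcl2, Cxcl1 and Il6, and the 212 at least 2-fold lower (blue) include Aldh1a1, Slc10a2 and Adamdec1.

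Different probe sets of a gene give a technical check within these 2 arrays. Over 4821 genes with several probe sets over the floor on both arrays, the log2 ratios of a gene's probe sets had an SD of 0.23. Another probe set was over the floor in 34 of the 111 higher genes, and in 29 of those 34 all of them went the same way. For the lower genes the numbers were 67 of 68. This spread covers probes and not cultures.

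**Figure D2:**
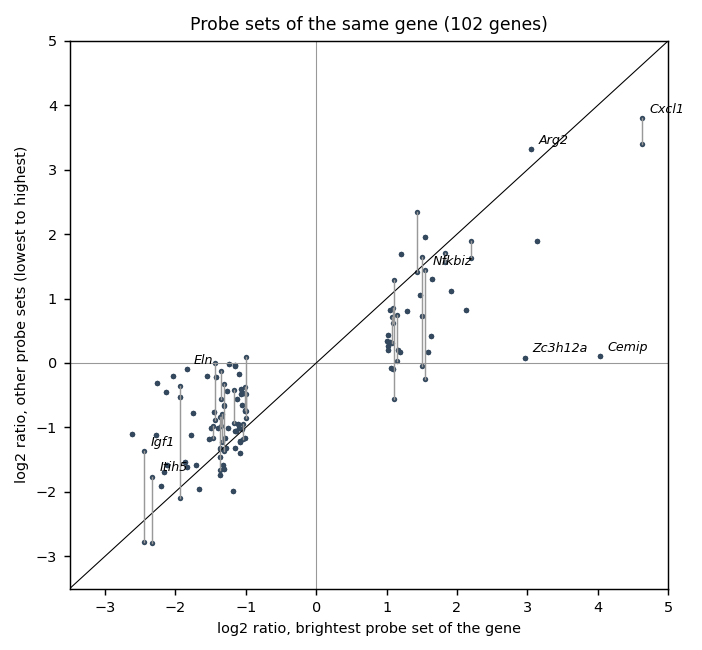
The log2 ratio of the brightest probe set (horizontal) is set against the lowest and highest log2 ratio of the gene's other probe sets over the floor (vertical, joined by a line) for the genes at least 2-fold different that have such a probe set (34 higher and 68 lower). Points on the diagonal are equal. Arg2 (3.05 and 3.32) lies near it, the other probe sets of Cxcl1 (3.40 and 3.80, against 4.63) lie below it, and those of Cemip (0.10) and Zc3h12a (0.08) lie close to 0.

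Chemokines that attract neutrophils included the genes furthest above untreated cells. These are CXC chemokines whose ELR motif (glutamate, leucine, arginine) before the first cysteine pair lets them bind CXCR2. All 5 measured members were at least 2-fold higher, with a median log2 ratio of 3.79. Cxcl2 had signals of 232 untreated, 969 with IL-17A, 1130.1 with FGF2 and 6656 with both, a 28.7-fold difference between combined and untreated cells. Its combined signal lay far above that with either factor alone. Cxcl1 had signals of 484 untreated, 4587 with IL-17A, 1387 with FGF2 and 11943 with both (24.7-fold higher), and its other 2 probe sets gave log2 ratios of 3.40 and 3.80. Cxcl5 read 315 untreated, 3878 with IL-17A, 373 with FGF2 and 4362 with both. For Cxcl5, unlike Cxcl2, the IL-17A array was close to the combined one and the FGF2 array close to the untreated one. Cxcl3 (3.27-fold) and Ppbp (2.61-fold) were higher by less, and Cxcl15 was under the floor on all 4 arrays.

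Other chemokines differed less. Of 11 measured CC chemokines, 9 were above 0 and 2 at least 2-fold higher, with a median log2 ratio of 0.40. Those were the monocyte attractants Ccl2 (629 untreated, 1216 with IL-17A, 597 with FGF2 and 1786 with both, 2.84-fold) and Ccl7 (189 untreated, 497 with IL-17A, 216 with FGF2 and 543 with both, 2.87-fold). The eosinophil attractant Ccl11 was 1.54-fold higher and Ccl9 1.77-fold. Ccl20, the ligand of CCR6, was over the floor with IL-17A alone (197) but not on the combined (55.7) or the untreated array (49.2). Of 7 measured CXC, XC and CX3C chemokines without the ELR motif, 3 were above 0 and 4 below. Cxcl13, which guides B cells, was 2.01-fold lower (log2 −1.01, other probe set −1.17), and Cxcl12 was 1.73-fold lower by its brightest probe set while the other gave 0.12.

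Among cytokines and colony-stimulating factors, 5 of 14 measured genes were at least 2-fold higher, 10 were above 0, and the median log2 ratio was 0.55 (0.14 under the 25th-percentile floor). The members of the IL-6 family, which signal through gp130, led them. Il6 had signals of 146 untreated, 937 with IL-17A, 417 with FGF2 and 3491 with both (23.9-fold). Il11 had signals of 1404 untreated, 3016 with IL-17A, 13544 with FGF2 and 15869.7 with both (11.3-fold). Lif read 445 untreated, 806 with IL-17A, 696 with FGF2 and 1949.5 with both (4.38-fold), but its other probe set gave a log2 ratio of 0.82. Il6, and Lif by its brightest probe set, were highest on the combined array by a wide margin, whereas Il11 on the FGF2 array came near its combined signal. The family member Clcf1 had a log2 ratio of 0.67. Csf3, the granulocyte colony-stimulating factor, was 2.86-fold higher (98.1 and 280.4) and Tnf at least 2.77-fold, both from signals close to or under the floor. The IL-1 family members Il33 (log2 0.00), Il18 (−0.32) and Il1b (−0.17) were near or below 0, and Csf2, Il1a and Il23a were under the floor on all arrays.

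Of 25 measured cytokine receptor genes 15 were above 0, against 48.2% of all measured genes, and 1 was at least 2-fold higher. That gene was Il13ra2, the decoy receptor for IL-13 (157 untreated, 344 with IL-17A, 269 with FGF2 and 610.4 with both, 3.90-fold). The chains that bind the given cytokine differed little or were lower: Il17ra had a log2 ratio of 0.18 (other probe set −0.04) and Il17rc of −0.47. The gp130 gene Il6st was at −0.28. Osteoprotegerin, Tnfrsf11b, was 1.64-fold higher and its other probe set gave 0.93. Genes of the adaptors and mediators of the IL-17 receptor lay near 0 as a list, with 6 of 14 above 0, 8 below and 0 at least 2-fold different. The adaptor gene Traf3ip2 was 1.30-fold and the transcription factor genes Cebpd and Cebpb were 1.34-fold and 1.24-fold higher.

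The genes of NF-kB subunits and of its feedback inhibitors had a median log2 ratio of 0.25, with 11 of 14 above 0 and 2 at least 2-fold higher. Nfkbiz encodes IkB-zeta, a nuclear partner of NF-kB needed for many IL-17A targets. Its brightest probe set read 1901 untreated, 5447 with IL-17A, 1794 with FGF2 and 5565 with both (2.93-fold), but its other 2 probe sets gave log2 ratios of −0.25 and 1.44, so they did not go the same way. Ier3, an early response gene, had signals of 5521 untreated, 8953 with IL-17A, 11628 with FGF2 and 15645 with both (2.83-fold). Tnfaip3, the deubiquitinase A20, was 1.75-fold higher and the inhibitor gene Nfkbia 1.27-fold. The 4 measured subunit genes lay between −0.29 (Relb) and 0.19 (Rel).

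Zc3h12a encodes Regnase-1, a ribonuclease that cuts cytokine mRNAs such as that of Il6. Its signals were 204 untreated, 1013 with IL-17A, 192 with FGF2 and 1595 with both (7.82-fold), so the FGF2 array was at the untreated level and the combined array the highest. Its dimmer probe set gave a log2 ratio of 0.08. The other 8 measured regulators of mRNA decay lay between −0.24 (Zfp36) and 0.13 (Zc3h12c).

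The sequences before the start sites of 8 of the highest genes are shown. They were picked because they hold letters that the transcription factors NF-kB or AP-1 are known to bind. They are RefSeq sequences of the build GRCm38.p6, all on the plus strand, read from 5′ to 3′ and ending 1 base before the start site, except those of the Sprr2 genes, which lie 220 to 161 bases before it. Capitals mark matches on either strand to GGGA, any 4 bases and CC (NF-kB) or TGANTCA (AP-1). A palindromic NF-kB match is found on both strands, overlapping by all but 1 base, and a gene was counted once however many matches it held.
Cxcl1, chr5:90891125-90891244: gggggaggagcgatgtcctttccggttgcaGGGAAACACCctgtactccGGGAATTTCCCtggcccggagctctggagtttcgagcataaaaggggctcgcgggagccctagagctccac
Cxcl2, chr5:90903779-90903898: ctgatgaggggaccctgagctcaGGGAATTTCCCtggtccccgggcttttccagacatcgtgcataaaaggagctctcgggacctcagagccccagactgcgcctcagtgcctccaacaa
Il6, chr5:30012864-30013113: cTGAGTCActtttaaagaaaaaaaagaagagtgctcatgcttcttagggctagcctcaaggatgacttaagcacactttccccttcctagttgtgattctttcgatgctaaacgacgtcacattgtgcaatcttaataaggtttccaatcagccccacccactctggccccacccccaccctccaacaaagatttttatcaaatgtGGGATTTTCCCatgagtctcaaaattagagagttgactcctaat
Mmp3, chr9:7445702-7445821: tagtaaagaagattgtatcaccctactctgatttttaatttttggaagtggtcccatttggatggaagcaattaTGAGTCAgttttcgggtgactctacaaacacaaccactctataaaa
Mmp13, chr9:7272394-7272513: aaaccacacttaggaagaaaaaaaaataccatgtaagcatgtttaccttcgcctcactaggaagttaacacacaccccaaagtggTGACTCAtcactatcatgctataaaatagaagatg
Sprr2d, chr3:92338920-92338979: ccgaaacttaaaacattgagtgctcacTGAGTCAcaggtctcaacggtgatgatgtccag
Sprr2f, chr3:92364967-92365026: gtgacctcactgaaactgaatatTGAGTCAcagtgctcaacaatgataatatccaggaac
Sprr2h, chr3:92385465-92385524: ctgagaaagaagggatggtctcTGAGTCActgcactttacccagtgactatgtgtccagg

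Of the 30 highest genes 22 had an entry in the promoter table, and 11 of the 22 held TGANTCA within 250 bases before a start site, against 7.82% of all 27025 genes in the table. For the 30 lowest genes it was 4 of 26. Over all genes at least 2-fold higher it was 20 of 80 (25%), and over those at least 2-fold lower 24 of 166 (14.5%). The NF-kB letters were held by 5 of the 22 highest, 6 of the 26 lowest and 19.7% of all genes. The Sprr2 genes are copies of each other, so their 3 matches are not independent. A match shows the letters in that window and not binding, and these shares were read after the genes had been chosen.

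Genes of host defence at mucosal surfaces lay on both sides of 0, with 9 of 16 measured antimicrobial and acute-phase genes above 0 and 6 below. S100a8, a subunit of calprotectin that withholds zinc and manganese, had signals of 419 untreated, 717 with IL-17A, 1348 with FGF2 and 3740.1 with both (8.93-fold). Neutrophils also carry this transcript. Of 4 listed neutrophil markers only the 3 named above had a probe set, and these were under the floor on all arrays, as was the partner gene S100a9. Lcn2, which binds bacterial siderophores, read 1300.4 untreated, 6751 with IL-17A, 1339 with FGF2 and 6843 with both (5.26-fold). Pigr, the carrier of IgA, was 2.93-fold higher with both factors (986), below the IL-17A array (1647). Steap4, a metalloreductase, was 2.37-fold higher. Reg3b, an antibacterial lectin, was 3.45-fold lower (2151 untreated, 945 with IL-17A, 756 with FGF2 and 624 with both), and its other probe set gave −1.12. Saa1 was 1.84-fold and Saa2 1.77-fold lower while Saa3 was 1.30-fold higher. These serum amyloid genes are similar in sequence, and the names of the Saa2 and Saa3 probe sets mark possible detection of related transcripts.

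Small proline-rich proteins are crosslinked into the envelope of stressed epithelium. Among 5 measured members, 3 were at least 2-fold higher and 2 below 0. The list median of 2.71 became 0.34 under a 75th-percentile floor and 0.00 under a 25th-percentile floor. The floor also sets which members count as measured. Sprr2h had signals of 695 untreated, 5874 with IL-17A, 682 with FGF2 and 6415 with both (9.23-fold), Sprr2f of 768 untreated, 3589.8 with IL-17A, 1045 with FGF2 and 6091 with both (7.93-fold) and Sprr2d of 79.6 untreated, 417 with IL-17A, 90.5 with FGF2 and 587 with both (at least 6.53-fold). In all 3 the FGF2 array was the nearest to the untreated one. Probe sets of these near-identical genes may detect each other's transcripts. Sprr1a was at −0.28. Of mucins, the cell surface mucin Muc1 was 4.63-fold higher (111 untreated, 425 with IL-17A, 144 with FGF2 and 516 with both) and Muc4 1.42-fold, while Muc2, the gel-forming mucin of goblet cells, was 1.65-fold lower (3847 untreated, 2815 with IL-17A, 2869.7 with FGF2 and 2335 with both).

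**Figure D3:**
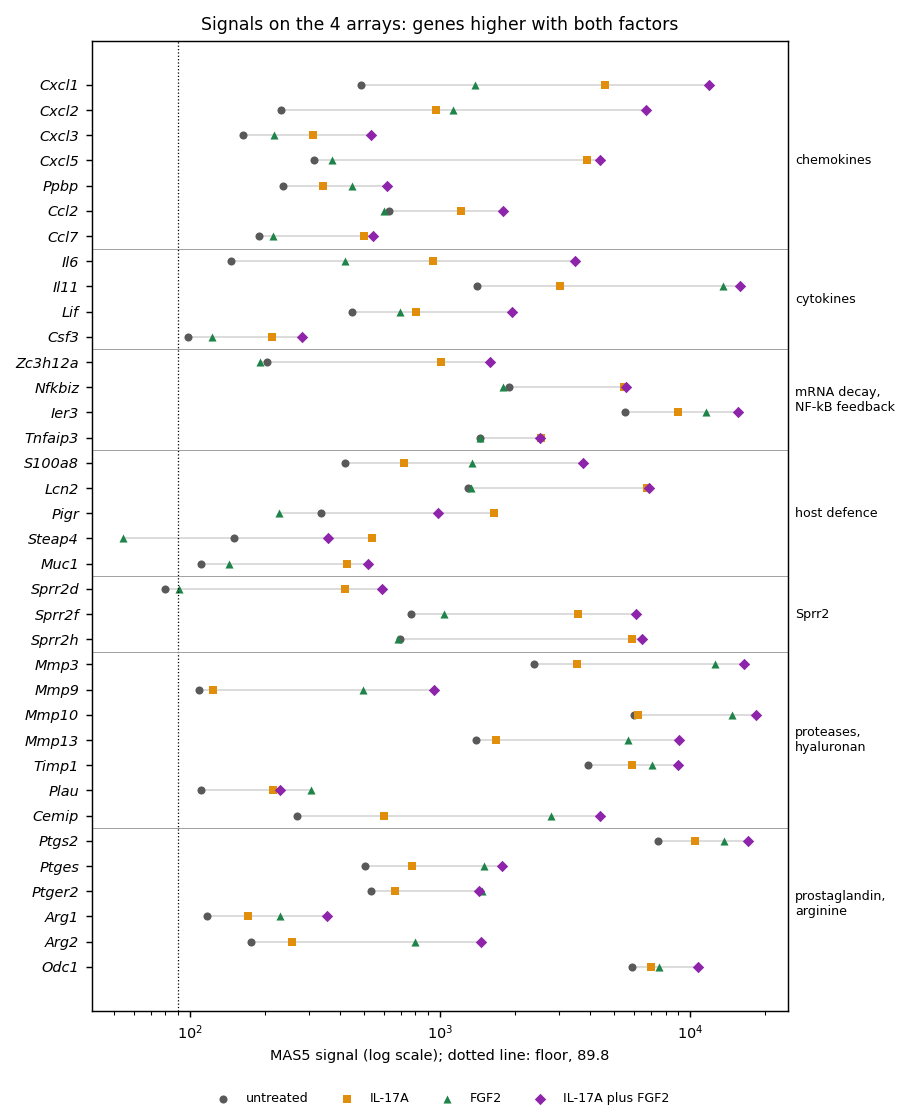
Signals as deposited, without the floor, of genes higher with both factors are plotted on a log axis for the untreated (circle), IL-17A (square), FGF2 (triangle) and combined array (diamond), 1 array each, grouped by role. Cxcl5, Lcn2 and Nfkbiz lie at the IL-17A signal, Mmp3, Mmp10 and Il11 near the FGF2 signal, and Cxcl1, Cxcl2 and Il6 beyond both.

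Some of the genes that open and remodel the matrix were higher. Of 15 measured matrix metalloproteinases and their inhibitors (TIMPs), 5 were at least 2-fold higher and 1 (Mmp23, at least 2.23-fold) lower, 9 were above 0 and 6 below, with a median log2 ratio of 0.22 (0.67 under the 75th-percentile floor). Mmp3, stromelysin, had signals of 2373 untreated, 3529 with IL-17A, 12604 with FGF2 and 16516 with both (6.96-fold). Mmp13, a collagenase, read 1398 untreated, 1674 with IL-17A, 5639 with FGF2 and 9027 with both (6.46-fold) and Mmp10 6006 untreated, 6204 with IL-17A, 14775 with FGF2 and 18448 with both (3.07-fold). Mmp9, a gelatinase, went from 109 to 952 (8.77-fold), with a log2 ratio of 1.90 in its other probe set. For all 4 the IL-17A array was the closest to the untreated array. The inhibitor Timp1 was 2.30-fold higher, Timp3 1.55-fold lower, and the constitutive gelatinase gene Mmp2 was at 0.10.

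Genes of plasminogen activation and coagulation control were also higher: 5 of 10 measured members were at least 2-fold higher, 9 were above 0, and the median was 0.75. Thbd, thrombomodulin, had signals of 1650.1 untreated, 1584 with IL-17A, 4479 with FGF2 and 4803 with both (2.91-fold) and Procr, the protein C receptor, of 1433 untreated, 1495 with IL-17A, 2639 with FGF2 and 3178 with both (2.22-fold). Tfpi2, a protease inhibitor, was 2.85-fold and Serpinb2, an inhibitor of plasminogen activators, 2.42-fold higher. Plau, urokinase, was 2.06-fold higher (111 and 229), with the FGF2 array highest at 306, and its receptor Plaur 1.36-fold. Thbd and Procr are also expressed by endothelium, and all 5 endothelial markers were above 0, with summed signals of 4695 untreated and 7677 with both. The part of endothelial cells in these values was not tested.

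Of hyaluronan genes 1 of 11 was at least 2-fold higher and 1 lower. Cemip, which is needed to break down hyaluronan, read 268 untreated, 598 with IL-17A, 2777 with FGF2 and 4382 with both (16.3-fold) in its brightest probe set and had a log2 ratio of 0.10 in the other. Averaged over all probe sets of Cemip, those under the floor included, the log2 ratio was 1.38. The synthase gene Has2 was 1.76-fold higher, with 0.81 in its other probe set, and the receptor Cd44 1.26-fold. Itih5, whose family binds hyaluronan covalently, was 5.02-fold lower (2027 untreated, 1960.3 with IL-17A, 476 with FGF2 and 403 with both), with −2.79 and −1.76 in its other 2 probe sets.

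Genes of prostaglandin E2 lay on both sides of 0. Ptgs2, the inducible cyclooxygenase, had signals of 7450.1 untreated, 10514 with IL-17A, 13725 with FGF2 and 17092 with both (2.29-fold, other probe set 1.70). Ptges, the synthase that follows it, read 503 untreated, 774 with IL-17A, 1504 with FGF2 and 1782 with both (3.54-fold), with 1.56 and 1.70 in the other probe sets. The receptor Ptger2 was 2.69-fold higher and the receptor Ptger4 had a log2 ratio of −0.58. Hpgd, which inactivates prostaglandin E2, had signals of 2224 untreated, 1028 with IL-17A, 1059.7 with FGF2 and 497 with both (4.48-fold lower, other probe set −1.69). Slco2a1, which takes it up for breakdown, was 1.93-fold lower, with its other 3 probe sets between −0.92 and −0.14. In all, 3 of 13 measured genes of this list were at least 2-fold higher and 1 lower.

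Of genes of arginine and polyamine metabolism, 3 of 14 were at least 2-fold higher, 11 above 0 and the median was 0.35. Arg2, the mitochondrial arginase, had signals of 176 untreated, 258 with IL-17A, 796 with FGF2 and 1458 with both (8.28-fold), and its other probe set gave 3.32. The cytosolic arginase Arg1 was 3.03-fold higher from a low signal (117 to 356). Smox, spermine oxidase, was 2.24-fold higher, with 0.20 in its other probe set. Odc1, the first enzyme of polyamine synthesis, was 1.84-fold higher, and the inducible nitric oxide synthase Nos2 was under the floor. Slc7a11, the cystine-glutamate exchanger, was 2.84-fold higher (262 untreated, 384 with IL-17A, 408 with FGF2 and 746 with both).

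Feedback genes of FGF and ERK signalling were mostly above 0, with 15 of 22 measured members, a median of 0.25 and 0 at least 2-fold different. Spry4, a Sprouty inhibitor, had signals of 898 untreated, 862 with IL-17A, 1412 with FGF2 and 1487 with both (1.66-fold), with log2 ratios from 0.70 to 0.997 in its other probe sets. Dusp4 read 2049 untreated, 2158 with IL-17A, 2982 with FGF2 and 3075 with both (log2 0.59) and the transcription factor gene Etv4 122 untreated, 88.5 with IL-17A, 203 with FGF2 and 211 with both (1.73-fold). For Spry4, Dusp4 and Etv4 the FGF2 and combined arrays were close, and the IL-17A array was close to or under the untreated one. Dusp6 (−0.10) and Etv5 (−0.21), also known targets of this pathway, were slightly below 0. Among receptors, the epithelial gene Fgfr2 was 1.87-fold lower (other probe set −0.79), and Fgfr4 1.59-fold lower. Fgfr1 was at 0.25, with its other probe sets between −0.07 and 0.36.

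Immediate early genes were at a median of 0.14 at 6 h, with 15 of 22 above 0 and 2 at least 2-fold higher. Egr3 was 2.26-fold higher (148 untreated, 186 with IL-17A, 330.2 with FGF2 and 334 with both). Nr4a2 was 2.14-fold higher, but its other 5 probe sets ranged from −0.56 to 1.29. Fosl1, an AP-1 subunit, was 1.66-fold higher, Fos was at −0.19 and Egr1 at −0.02.

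Growth factor genes were split. Of the EGF family, epigen (Epgn) read 173 untreated, 230.1 with IL-17A, 662 with FGF2 and 582 with both (3.37-fold) and epiregulin (Ereg) 11987 untreated, 14537 with IL-17A, 18109 with FGF2 and 18838 with both (1.57-fold), while Tgfa was 1.39-fold lower. Among 30 other growth factors and morphogens, 3 were at least 2-fold higher and 3 lower. Bmp2, of the bone morphogenetic proteins, was 2.29-fold higher (4144 untreated, 4633 with IL-17A, 9856 with FGF2 and 9508 with both) and Inhba, the activin A subunit, 2.13-fold (3958 untreated, 4715 with IL-17A, 8626 with FGF2 and 8447 with both). Tgfb1 was 2.12-fold higher by its brightest probe set but at −0.09 by the other. Vegfa was 1.68-fold and Pdgfa 1.65-fold higher. Igf1, insulin-like growth factor, was lower in each of its probe sets. The brightest read 2466 untreated, 1968 with IL-17A, 485 with FGF2 and 452 with both (5.45-fold lower) and the other 3 gave −2.78 to −1.37. Tgfb3 was 2.02-fold and Wnt4 at least 2.07-fold lower.

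Cell cycle genes were shifted by small amounts in one direction. Of the G1/S and replication genes 23 of 27 were above 0 (median 0.24) and of the G2/M genes 23 of 25 (median 0.28), against 48.2% of all measured genes, and 0 of either list were at least 2-fold different. Aurkb, a mitotic kinase, was 1.74-fold higher, Mki67 1.44-fold, the helicase gene Mcm7 1.44-fold and E2f1 1.51-fold. Ccnd1 was at 0.09. The list of cell cycle inhibitors and p53 targets had a median of −0.23 with 14 of 18 below 0, for example Fas (1.65-fold lower) and Gadd45a (1.53-fold lower), while Cdkn1a was at 0.04. Ribosome biogenesis genes had a median of 0.26 and 22 of 26 above 0. In this list Rrp9, of the small subunit processome, stood alone: it read 305 untreated, 389 with IL-17A, 391 with FGF2 and 90.8 with both, so that the combined array was far below the other 3. Cytosolic ribosomal protein genes had a median of 0.25, and of 0.04 under quantile normalization. The brightest genes as a class lay at 0.11.

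Turning to genes lower than untreated, those of the absorptive enterocyte made up the marker list with the lowest median. Of the 5 measured enterocyte markers all 5 were at least 2-fold lower (median −1.66), and their summed signals were 21871 untreated, 11210 with IL-17A, 17165 with FGF2 and 8358 with both. The summed signals of the 9 epithelial markers were 117902, 122336, 123300 and 125542. The median log2 ratio of these 9 markers was 0.11, and −0.08 under quantile normalization. Other epithelial lists lay lower, with medians of −0.07 for tight junctions, −0.25 for keratins and structural genes and −0.29 for fate transcription factors. The villus actin bundler Vil1 was 1.62-fold lower (4297 untreated, 3630.2 with IL-17A, 3417 with FGF2 and 2655 with both).

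Bile acid genes, which act in the ileum, were lower together. Of 10 measured genes 9 were below 0 and 5 at least 2-fold lower, with a median of −1.21 (−0.21 under the 75th-percentile floor). Slc10a2, the apical sodium-dependent uptake transporter, had signals of 599 untreated, 215 with IL-17A, 220.3 with FGF2 and 83.4 with both (at least 6.67-fold lower). Both chains of the basolateral exporter were lower, with Slc51a at 560.3 untreated, 269 with IL-17A, 274 with FGF2 and 144 with both (3.88-fold) and Slc51b at 514 untreated, 275 with IL-17A, 205 with FGF2 and 137 with both (3.76-fold). Nr1h4, the bile acid receptor FXR, read 799.6 untreated, 563 with IL-17A, 324 with FGF2 and 225 with both (3.55-fold lower). Fgf15, a known target of this receptor and a hormone that restrains bile acid synthesis in liver, read 484 untreated, 285 with IL-17A, 311 with FGF2 and 117 with both (4.14-fold lower). In each of these 5 genes the untreated array was highest, the combined array lowest, and both single-factor arrays lay between. The 5 were picked for their difference between the combined and untreated arrays, which in part fixes that order. None of the 5 stayed at least 2-fold lower under every alternative processing described below. Abcc3, another basolateral exporter, was at 0.07.

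Lipid absorption genes had a median of −0.58, with 19 of 23 members below 0 and 7 lower by at least 2-fold. They include the apolipoproteins of chylomicrons. Apob read 2765 untreated, 998 with IL-17A, 1827 with FGF2 and 826 with both (3.35-fold lower), Apoa1 12845 untreated, 6771 with IL-17A, 10645 with FGF2 and 5006 with both (2.57-fold) and Apoc2 2101 untreated, 1213 with IL-17A, 1443 with FGF2 and 800.01 with both (2.63-fold). Mttp, which loads lipid onto apolipoprotein B, was 2.26-fold lower, and Fabp2, the intestinal fatty acid-binding protein, 3.36-fold. For Apob and Apoa1 the IL-17A array was nearer to the combined array than the FGF2 array was. The other probe sets of Apoa1 gave −1.65 to −1.33 and that of Apob −0.77. Scarb1 (0.14) was slightly above 0.

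Brush border enzymes had a median of −0.51, with 11 of 12 below 0 and 3 at least 2-fold lower. Alpi, intestinal alkaline phosphatase, read 1371 untreated, 645 with IL-17A, 948 with FGF2 and 433 with both (3.16-fold), Mgam, maltase-glucoamylase, 675 untreated, 330.5 with IL-17A, 487 with FGF2 and 262 with both (2.58-fold) and Mep1b, a meprin subunit, 947 untreated, 882 with IL-17A, 519 with FGF2 and 387 with both (2.45-fold). Among transporters and related genes of sugars, ions and vitamins 25 of 30 were below 0 and 11 at least 2-fold lower, with a median of −0.78. Slc26a3, the chloride-bicarbonate exchanger, read 740.2 untreated, 349 with IL-17A, 287 with FGF2 and 193 with both (3.83-fold), with its other 2 probe sets at −2.10 and −0.35. Slc9a3, the sodium-proton exchanger, was 2.31-fold lower, and lowest on the FGF2 array (204). Guanylin (Guca2a) was 2.21-fold, uroguanylin (Guca2b) 3.04-fold and their receptor Gucy2c at least 2.45-fold lower. Metal transporters went both ways: the manganese exporter Slc30a10 was at least 3.64-fold and the iron exporter Slc40a1 2.14-fold lower, while the zinc importer Slc39a4 was 2.09-fold higher (938 untreated, 2107 with IL-17A, 1247 with FGF2 and 1958 with both). The amino acid transporter Slc6a19 was 2.50-fold and the peptide transporter Slc15a1 at least 2.18-fold lower.

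Of retinoid genes 2 of 12 were at least 2-fold lower. Aldh1a1, which makes retinoic acid, read 869.9 untreated, 611 with IL-17A, 166 with FGF2 and 119 with both (7.33-fold lower), and its FGF2 signal lay near the combined one. After flooring, the ratio of Aldh1a1 was the lowest of the genes named here. The folds of Slc10a2, Agt, Pdlim3 and Agr2 are minima, so their order against Aldh1a1 is not known. Rbp2, the retinol carrier of enterocytes, was 2.59-fold lower, whereas Aldh1a2 was at 0.09. Xenobiotic genes were at a median of −0.33, with 12 of 15 below 0 and 4 at least 2-fold lower. Cyp3a11 read 485 untreated, 133 with IL-17A, 282 with FGF2 and 135 with both (3.59-fold), with the IL-17A and combined signals close to each other, and Cyp3a13 was 2.11-fold lower. Among fate transcription factors 18 of 23 were below 0 and 1, the lipid regulator Creb3l3, was at least 2-fold lower (2.39-fold). Isx was 1.91-fold and Cdx2 1.26-fold lower, and Hnf4a had a log2 ratio of −0.58. Ehf, of the ETS family, was 1.59-fold higher with 0.68 and 0.77 in its other probe sets.

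All 7 goblet markers were below 0 (median −0.61), and 1 was at least 2-fold lower. That was Agr2, a disulfide isomerase needed for mucin folding (548 untreated, 185 with IL-17A, 133 with FGF2 and 70.7 with both, at least 6.11-fold), with −1.10 in its other probe set. Fcgbp was 1.68-fold lower, and Tff3 was at −0.06 (16775 untreated, 16373 with IL-17A, 16077 with FGF2 and 16041 with both). The 4 measured Paneth markers lay between −0.51 (Ang4) and −0.14 (Mmp7). Of 6 enteroendocrine markers 4 were below 0, but Cck, the cholecystokinin gene, was 3.40-fold higher (1099.8 untreated, 1122 with IL-17A, 4103 with FGF2 and 3738 with both). The claudin gene Cldn2 was 2.42-fold lower, the 1 of 20 tight junction genes past 2-fold. Interferon-stimulated genes had a median of −0.33 with 25 of 30 below 0 and 0 at least 2-fold different, for example Rsad2 (1.81-fold) and Ifit1 (1.48-fold).

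**Figure D4:**
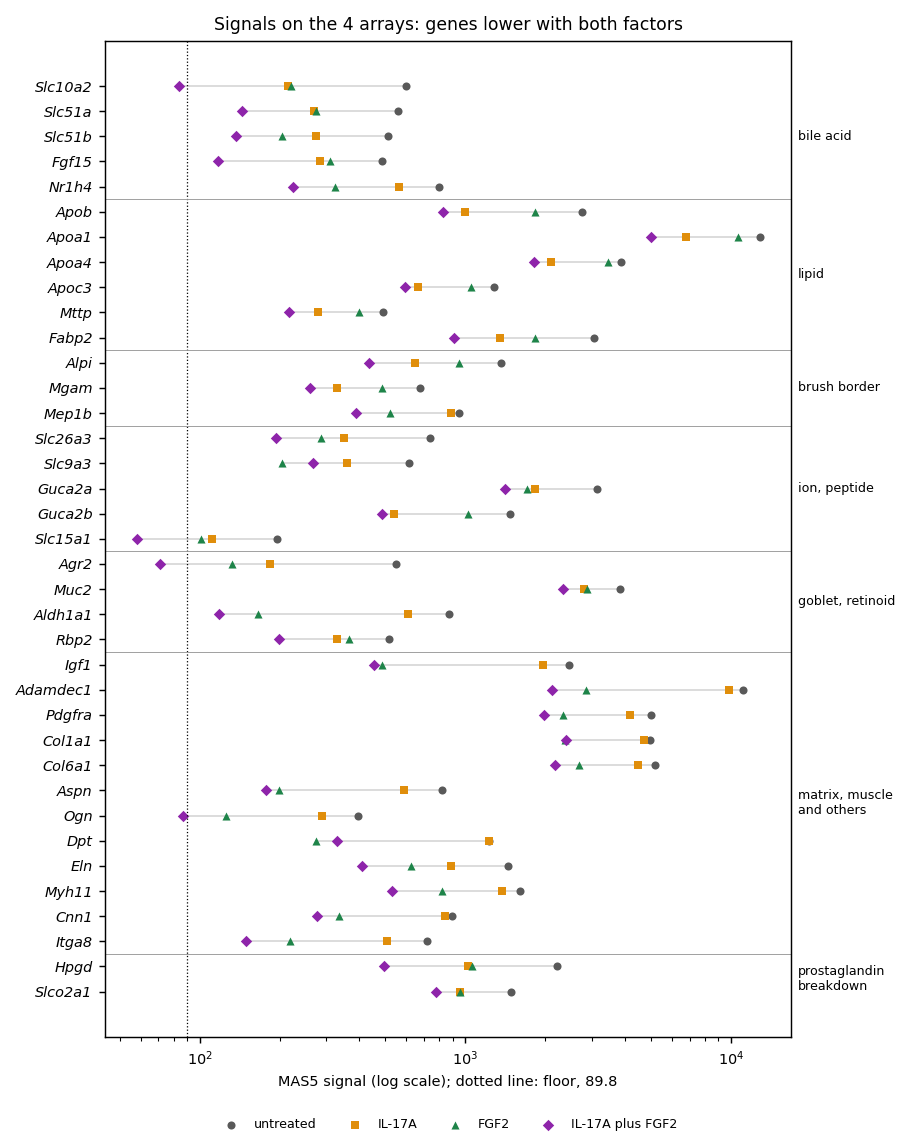
Signals as deposited, without the floor, of genes lower with both factors are plotted on a log axis for the untreated (circle), IL-17A (square), FGF2 (triangle) and combined array (diamond), 1 array each. The combined array is lowest for the 5 bile acid genes and for Apob and Apoa1, and in most matrix and muscle genes it lies near the FGF2 array.

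Matrix genes, which fibroblasts and muscle cells are known to express, were lower in part. Of 20 measured collagen genes 17 were below 0 and 4 at least 2-fold lower, with a median of −0.27. Col4a5, a basement membrane chain, read 1112 untreated, 686 with IL-17A, 375 with FGF2 and 257 with both (4.32-fold, other probe set −1.58). Col6a1 and Col6a2 were 2.39-fold and 2.43-fold lower and Col1a1 2.07-fold (4986 untreated, 4722 with IL-17A, 2386 with FGF2 and 2408 with both). Col5a3 was 1.89-fold higher. Small proteoglycans and elastic fibre genes had a median of −0.66, with 12 of 15 below 0 and 4 at least 2-fold lower. Those were Aspn (821 untreated, 591 with IL-17A, 199 with FGF2 and 178 with both, 4.62-fold), Ogn (at least 4.40-fold, other probe set −0.46), Dpt (3.73-fold) and elastin, Eln (3.57-fold, other probe set −0.10). Decorin, Dcn, was 1.46-fold higher (10810.5 untreated, 13120.3 with IL-17A, 12918 with FGF2 and 15772 with both) and its other probe set gave 0.99.

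The 6 fibroblast markers were split, with 4 below 0 and 2 above, and a median of −0.51. Pdgfra, the receptor that marks fibroblasts, read 4992 untreated, 4172 with IL-17A, 2340.4 with FGF2 and 1984 with both (2.52-fold lower), and Lum was at 0.37. All 4 smooth muscle markers were below 0. Myosin heavy chain, Myh11, read 1615 untreated, 1377 with IL-17A, 817 with FGF2 and 531 with both (3.04-fold) and calponin, Cnn1, 889 untreated, 837 with IL-17A, 334 with FGF2 and 276 with both (3.22-fold), while Acta2 was 1.38-fold lower. The muscle genes Pdlim3 (at least 6.57-fold) and Mustn1 (3.75-fold) and the integrin Itga8 (4.79-fold, other probe set −0.31) were among the 30 lowest genes. So was Adamdec1, a protease of the gut lamina propria, which was bright throughout (11129.7 untreated, 9843 with IL-17A, 2849.9 with FGF2 and 2118 with both, 5.26-fold). Agt, angiotensinogen, read 594 untreated, 422 with IL-17A, 84.6 with FGF2 and 45.3 with both (at least 6.62-fold). The part of cell number in these values was not tested.

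All 5 endothelial markers were above 0, with a median of 0.67. Flt1, a VEGF receptor, was 2.14-fold higher (401 untreated, 461 with IL-17A, 709 with FGF2 and 858 with both), with its other 3 probe sets between 0.62 and 0.86. Emcn was 1.70-fold and Cdh5 1.59-fold higher. Summed over the list, signals were 4695 untreated, 4555 with IL-17A, 7052 with FGF2 and 7677 with both. Macrophage markers lay between −0.67 (Ptprc) and 0.08 (Csf1r).

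Of 21 measured genes of RGS proteins, RAMP proteins and vasoactive peptides, 2 (Ramp3 and Rgs1) were at least 2-fold higher and 2 (Agt and Ramp1) lower, with a median of 0.14. Ramp3, a partner of the calcitonin receptor-like receptor, read 184 untreated, 285 with IL-17A, 1357 with FGF2 and 1099 with both (5.97-fold), while its relative Ramp1 was 2.91-fold lower. Rgs1, which ends G-protein signals, read 557 untreated, 588 with IL-17A, 2470.2 with FGF2 and 2129 with both (3.82-fold). Hcar2, a receptor for butyrate and niacin, was 5.57-fold higher (109.6 untreated, 177 with IL-17A, 322 with FGF2 and 611 with both). Dio2, which activates thyroid hormone, was 4.57-fold higher, with 1.64 and 1.89 in its other probe sets, and the secreted glycoprotein gene Stc1 4.23-fold. Map2k6, a kinase of the p38 pathway, was at least 4.30-fold higher. Prl2a1 (512 untreated, 3451 with IL-17A, 417 with FGF2 and 3289 with both, 6.43-fold) and the chloride channel regulator family gene Clca3b (4.01-fold) were at similar signals with IL-17A alone. Sptssb (5.36-fold), Slc14a1 (at least 3.78-fold) and the segment Trbv1 (4.10-fold) were near their combined signals with FGF2 alone. The remaining genes of the 30 lowest were Rims1 (at least 4.85-fold, other probe set −1.12), Spon2 (4.11-fold, other probe set −0.21), Ms4a4d (4.05-fold), Tm4sf4 (3.64-fold), Slc25a48 (at least 3.82-fold, other probe set −0.53) and Ugt2b34 (3.58-fold, other probe set −1.61).

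The remaining lists had medians inside the range that holds 90% of all measured genes. Of 24 glycolysis and hypoxia genes 18 were above 0 (median 0.14), and of 24 genes of the unfolded protein and heat shock response 19 (median 0.17). Cholesterol and fatty acid synthesis genes had 14 of 21 above 0. Complement genes had 11 of 13 below 0 (median −0.31), and wound matrix genes 12 of 18 (median −0.12). Keratins and other structural genes of epithelium had 14 of 21 below 0 (median −0.25). That range is one of single genes, and list medians vary less. A median inside it therefore does not show that a list was unshifted.

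**Figure D5:**
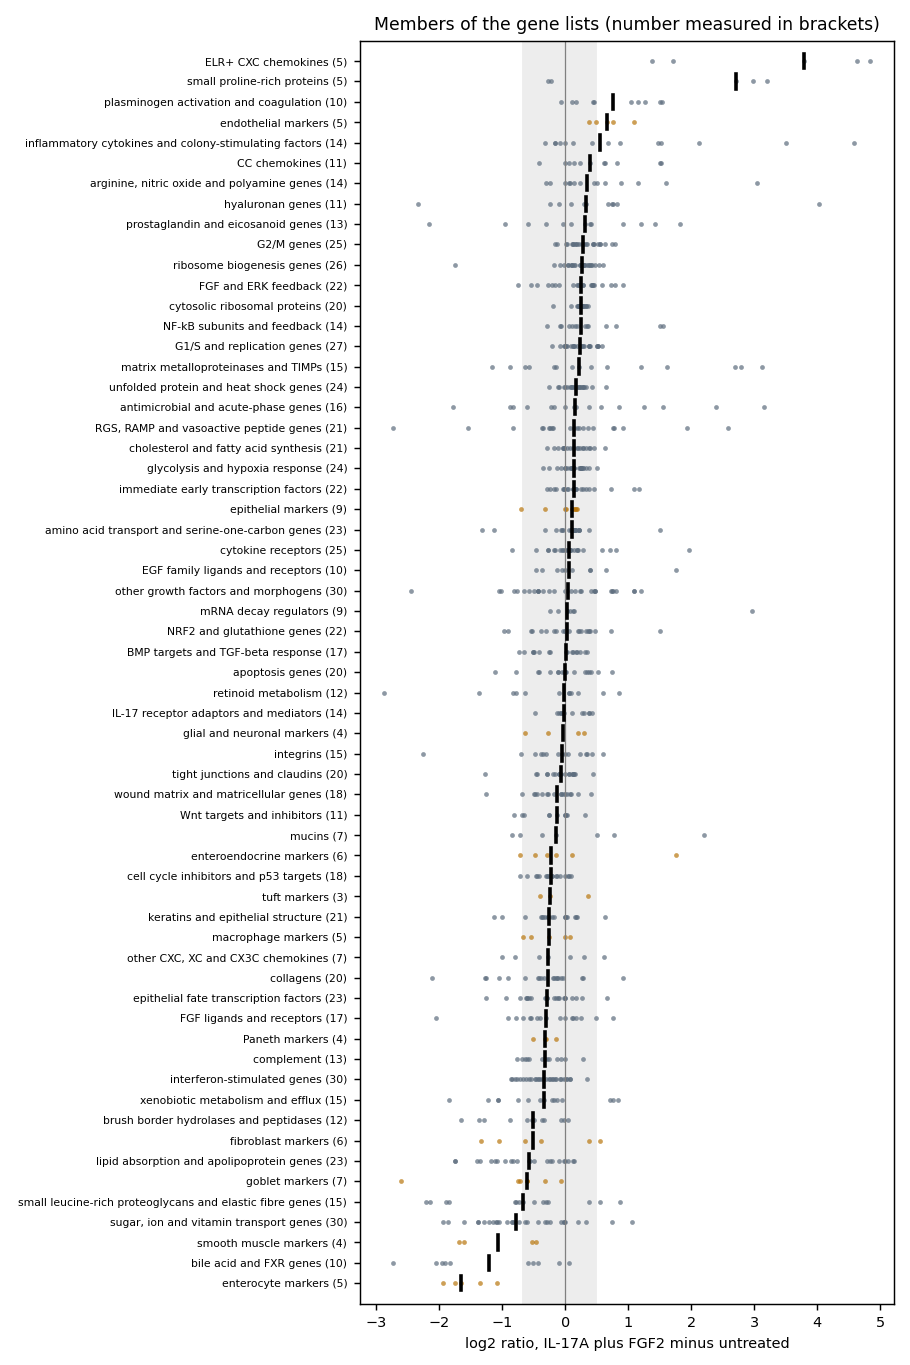
Each point is a measured member of 1 of the gene lists (grey, processes; orange, cell type markers), placed by its log2 ratio of the combined to the untreated array; the black bar is the list's median and the shaded band holds 90% of all measured genes (−0.67 to 0.48). ELR+ CXC chemokines have the highest median (3.79) and enterocyte markers the lowest (−1.66), while most list medians lie inside the band.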

How the data were processed

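RNA of 4 groups had been read on 1 array each. The deposited numbers are log2 signals, made by the authors with MAS5 per the submitters' processing notes, whose version is not stated there. In the deposited log2 values every array had a 2% trimmed mean signal of 500. Here the floor was set at the median of all non-control signals (89.8), and each gene was represented by its brightest probe set with a single symbol. The log2 ratio is the combined minus the untreated array. The platform annotation named 1 symbol for 34945 of 45101 probe sets, several for 932 and none for 9160, and 64 controls were left out. By Entrez identifier, 34741 matched the RefSeq table of GRCm38.p6.

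With 1 array in each group no test, error or p-value was computed, and the number of arrays limits the precision. The 64 lists had 1150 entries, of which 96 were not matched. Members and lists were chosen with earlier results of these data known. Genes named are list members and, on each side, the 30 most different genes past 2-fold, leaving out clone symbols and genes with a probe set that went the other way. Alternatives were 2 scalings, 2 floors, addition of the floor, the mean of all probe sets, leaving out probe sets that may detect related transcripts, and folds of 1.5 and 3. Python 3.11.15, numpy 2.4.6, pandas 2.3.3 and matplotlib 3.10.9 were used, and the steps were tested on simulated data.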

Additional observations from a re-analysis of the deposited data

Results flagged for a closer look

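Probe sets with several gene symbols or none entered no gene result, and some of them differed between the combined and the untreated array. Of 10092 such probe sets, 16 were at least 2-fold higher with both factors than untreated and 28 at least 2-fold lower. They carry no single gene name, so no gene is given for them.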

How the results depend on the processing

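The counts of genes at least 2-fold higher (111) and lower (212) became 295 and 618 under a 25th-percentile floor, 56 and 58 under a 75th-percentile floor, 410 and 799 at a fold of 1.5, and 43 and 44 at a fold of 3. Adding the floor to every signal gave 132 lower genes. Of 134 named or listed genes past 2-fold, 62 stayed past it under every alternative that left them a probe set. Some of the 62, such as S100a8, Sprr2h, Lcn2 and Ramp3, had none left without probe sets open to related transcripts. That alternative did not assess them. Where a gene was still measured under an alternative, 0 changed sign. No paired analysis was possible because each group has 1 array. Signals under the floor have no order here, so the folds of 10 higher and 40 lower genes are bounds.

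Some list medians (log2 ratios) also moved. Under the 25th-percentile floor they were 2.75 for ELR+ CXC chemokines, 0.14 for inflammatory cytokines, 0.00 for small proline-rich proteins, 0.46 for plasminogen genes, −0.67 for xenobiotic genes and −1.36 for enterocyte markers. Under the 75th-percentile floor they were 3.23 for the ELR+ chemokines, 0.34 for small proline-rich proteins, −0.069 for FGF ligands and receptors, 0.67 for metalloproteinases, 0.46 for plasminogen genes, −0.21 for bile acid genes, −0.50 for sugar, ion and vitamin transport, −1.36 for enterocyte markers and −0.73 for smooth muscle markers. Adding the floor gave 3.46 for ELR+ chemokines and 1.997 for small proline-rich proteins. Leaving out probe sets open to related transcripts gave 0.86 for inflammatory cytokines, 1.24 for small proline-rich proteins and −1.13 for fibroblast markers. The mean of all probe sets gave −0.82 for fibroblast and −0.53 for smooth muscle markers.

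Medians changed sign in 10 lists, whose main values ran from −0.25 (macrophage markers) to 0.16 (antimicrobial genes). The shift to a common median gave 0.026 for IL-17 receptor adaptors, 0.026 for retinoid genes, 0.047 for apoptosis genes and 0.019 for glial markers. Quantile normalization gave 0.024 for the adaptors, −0.034 for BMP and TGF-beta genes, 0.032 for apoptosis genes, −0.081 for epithelial markers and 0.049 for glial markers. Growth factors were at −0.00040 and BMP genes at −0.043 under the 25th-percentile floor, and at −0.023 and −0.074 by the mean of all probe sets. Glial markers were at 0.043 under the 75th-percentile floor, 0.00019 with the floor added and 0.11 by the mean of probe sets. Without probe sets open to related transcripts, antimicrobial genes were at −0.092, integrins at 0.047 and macrophage markers at 0.0050. The cause was not tested.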

Other observations

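Genes outside the lists and the 30 highest or lowest are given here, chosen after their values were seen. Several contractile genes were lower with both factors, and the summed signals of the smooth muscle markers were 21066 untreated and 14221 with both. Nexn, a protein of muscle filaments, read 869 untreated, 712 with IL-17A, 513 with FGF2 and 296 with both (2.93-fold lower). Mylk, the myosin light chain kinase, read 5549 untreated, 5176 with IL-17A, 2551 with FGF2 and 2228 with both (2.49-fold), and Myl9, a myosin light chain, 5322 untreated, 4778 with IL-17A, 2755 with FGF2 and 2236 with both (2.38-fold). In these 3 genes the combined and FGF2 arrays were both below the untreated one. The part of muscle cell number was not tested.

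On the higher side, Cd14, the lipopolysaccharide co-receptor, read 862 untreated, 1318 with IL-17A, 2639.9 with FGF2 and 3081 with both (3.57-fold). Noxo1, an organizer of the oxidase NOX1, read 552 untreated, 1784 with IL-17A, 621 with FGF2 and 1583 with both (2.87-fold), and Ackr2, a scavenger receptor for CC chemokines, 139.97 untreated, 157 with IL-17A, 267 with FGF2 and 416 with both (2.98-fold). Of the absorptive side, Tm6sf2, which acts in lipoprotein secretion, was 3.18-fold lower (303 untreated, 158 with IL-17A, 209 with FGF2 and 95.2 with both) and Myo1a, the brush border myosin, 2.07-fold lower (429 untreated, 297 with IL-17A, 295 with FGF2 and 207 with both).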
